A study of Mus musculus with 4 samples.

Results

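The collagen chains and the enzymes that modify and crosslink them were examined in myoblasts with reduced Fxr1. The list holds 38 gene names. It has chains of collagen types I to IX, XI, XII, XIV, XV, XVI and XVIII, with types VI and IX incomplete. The others are the lysyl oxidases, the lysyl hydroxylases, the prolyl 4-hydroxylase catalytic subunits P4ha1 and P4ha2, and the chaperone Serpinh1. Members were taken as all array probes that are not controls and carry one of these names. Of the 38 names, 37 had a probe and Col6a3 had none by this rule. These 37 genes have 56 probes, out of 36413 gene names and 55681 probes on the array, and 14 of them have several probes.

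RNA came from C2C12, a mouse myoblast line that divides in growth medium and can form myotubes. Cells were transfected with an siRNA against Fxr1, which encodes an RNA-binding protein of the fragile X family, or with a control siRNA. These groups are called siFxr1 and siControl. RNA was collected 48 hours after transfection in 2 independent experiments, and each experiment gave 1 one-colour Agilent array per condition, 4 arrays in all. The 2 arrays of an experiment shared a slide, so the experiment and the slide cannot be told apart. The RNA integrity number was 8 for siFxr1 in experiment 1 and 9 for the other 3 samples. In a culture of 1 cell line treated in bulk, fewer cells of a type and less RNA per cell cannot be told apart.

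Collagens are trimers whose chains repeat a unit of glycine and a pair of other residues, which lets them wind into a triple helix. Prolyl and lysyl hydroxylases modify the chains in the endoplasmic reticulum, the chaperone Hsp47 binds the folded helix, and lysyl oxidases crosslink the secreted molecules outside the cell. In skeletal muscle these proteins form the basement membrane around each fibre and the connective tissue between fibres, and myoblasts in culture also produce many of them.

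The repeat can be read in 3 of the members' own probes. These were found by reading each 60-base probe in its 3 frames and keeping those with no stop codon and at least 4 glycine codons at the same position of the repeat. They are printed 5′ to 3′ as the scanner files give them, with positions on mm9, to show the feature that defines the family. Capitals mark the glycine codons of that frame.
Col14a1 probe A_55_P2159522, chr15:55347733-55347792, + strand: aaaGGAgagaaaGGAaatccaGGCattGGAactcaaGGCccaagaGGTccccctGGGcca
Col15a1 probe A_55_P2060386, chr4:47283786-47283845, + strand: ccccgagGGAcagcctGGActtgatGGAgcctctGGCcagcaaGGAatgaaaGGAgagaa
Col16a1 probe A_55_P2056735, chr4:129756457-129756516, + strand: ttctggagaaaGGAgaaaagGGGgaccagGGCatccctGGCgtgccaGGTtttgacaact
In the probes of Col15a1 and Col16a1, all gaps between glycine codons were 3 codons long. The probe of Col14a1, a gene to which the results below return, holds 7 glycine codons, and 5 of its 6 gaps were 3 codons long and 1 was 2 codons long. The Col15a1 probe and this Col16a1 probe were well above background on 0 arrays, and the Col14a1 probe on 3.

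No member probe was called changed between siFxr1 and siControl, nor was any other probe on the array, those of Fxr1 included. Among the members that differed by at least 1.5-fold in the same direction in both experiments, Col14a1 was the furthest below siControl and Col18a1 the furthest above it, and each was seen with both probes of the gene in experiment 2 and, by a smaller size, in experiment 1. Of the 37 measured members, 30 had a detected probe, which means one marked by the scanner software as well above background on the 2 siControl or the 2 siFxr1 arrays, and for all 30 that held on each of the 4 arrays. The other 7 were Col2a1, Col4a3, Col4a4, Col9a1, Col11a1, Col11a2 and Col15a1, chains known mainly from cartilage, from specialised basement membranes or from vessel and muscle matrix.

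The values below are normalized log2 signals of a gene's probe, and a difference is the log2 signal in siFxr1 minus that in siControl. Levels of different probes are not compared, since probes differ in brightness. limma with Benjamini-Hochberg adjustment called 0 of 55681 probes (0%) at an adjusted p under 0.05 or a B value, the log odds of a change, above 0, so the 0 of 56 member probes are read against 0% of all probes. The lowest adjusted p was 0.95. At an unadjusted p under 0.05, limma marked 2764 probes, of which 4 were member probes. With 1 probe per gene, these were Col1a2, Col7a1, Col14a1 and Col18a1, 4 of the 30 members, against 6.9% of the 19132 genes well above background. Those genes include some that held the mark on both arrays of only 1 condition, while all 30 members held it on every array. Of the 17812 genes that held it on every array, 6.15% were under that p. With the experiment as a replicate block, which pairs the arrays of a slide, 5 of the 30 members were under that p, against 12.2% of genes. Among genes well above background on every array the share was 10.6%. Again no probe was called, with a lowest adjusted p of 0.535. The 5 members were Col5a1, Col7a1, Col14a1, Col18a1 and Loxl1. With 2 arrays per condition, an exact two-sided permutation test cannot give a p below 0.333, and the p-values given here measure only the spread between these samples.

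Among the 30 members, 9 were higher in siFxr1 in both experiments, 11 were lower in both and 10 moved in opposite directions. Of the 19132 genes well above background, 6521 were higher in both, 5712 were lower in both and 6899 moved in opposite directions. Of the members, 0 were at least 2-fold higher in both experiments, against 2.11% of genes, and 1, Col14a1, was at least 2-fold lower, against 1.48% of genes. Among the 17812 genes well above background on every array, as the members were, these shares were 1.22% and 1.14%. The shares that follow are over the 19132 genes. With a limit of 1.5-fold, 3 members were higher (Col5a1, Col18a1 and Loxl1), against 5.57% of genes, and 2 were lower (Col7a1 and Col14a1), against 5.19% of genes. The 2 siFxr1 arrays lay above both siControl arrays for 5 members, Col4a1, Col4a2, Col5a3, Col18a1 and Loxl4, against 16.5% of genes. They lay below both for 7 members, Col1a1, Col1a2, Col7a1, Col14a1, Col16a1, Loxl3 and Plod2, against 14.2% of genes. The median difference of the 30 members was -0.05, with 0.08 in experiment 1 and -0.24 in experiment 2. Over all genes well above background the median was 0.03. The median size of the difference, whatever its sign, was 0.38 for the members and 0.28 for all genes.

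**Figure D1:**
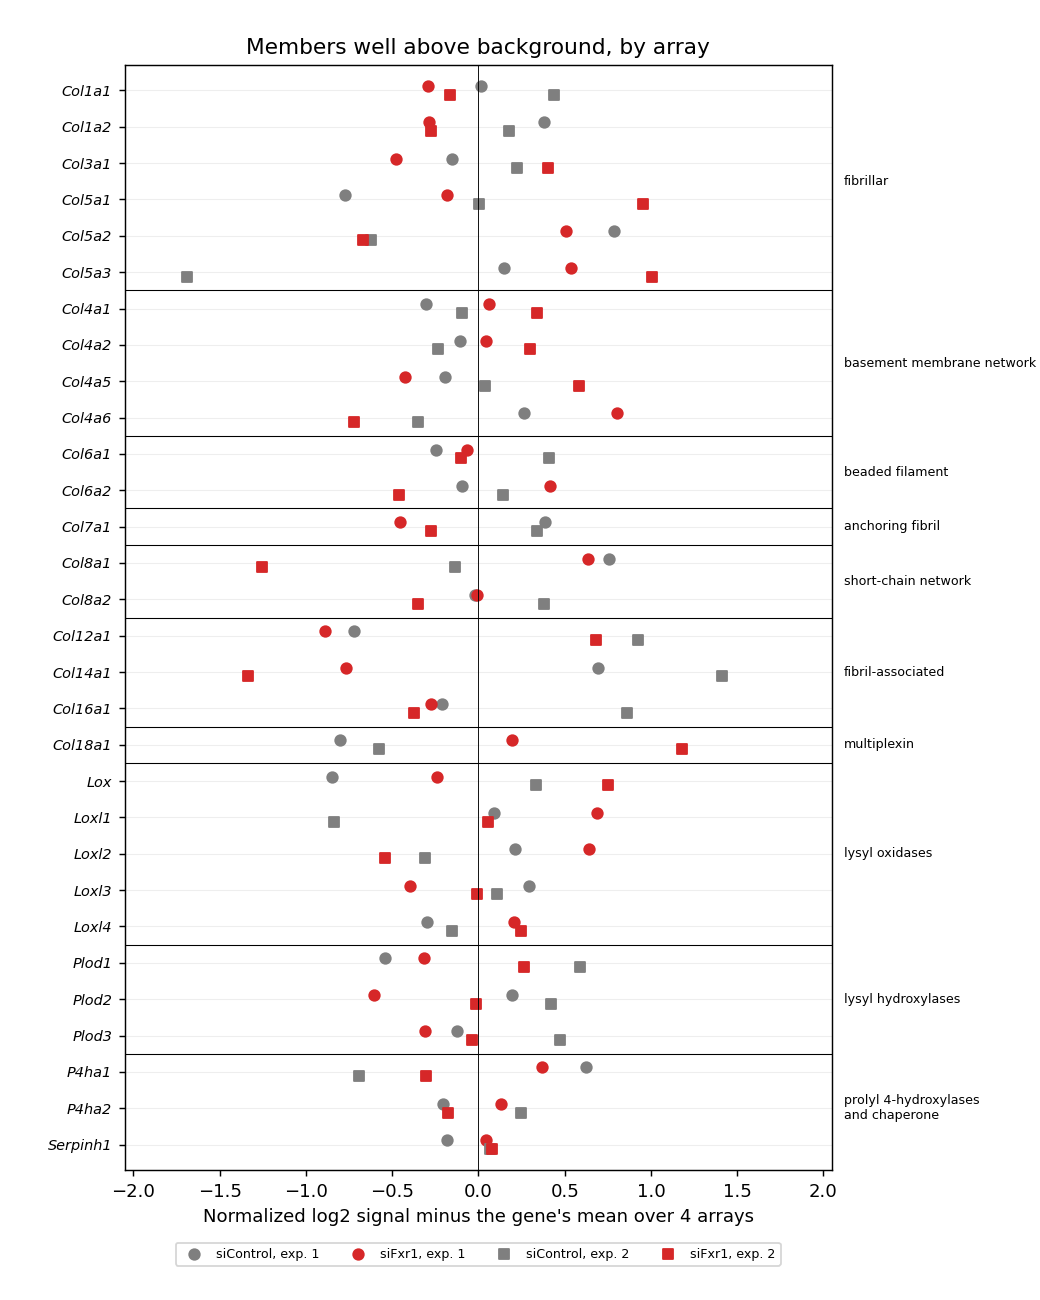
Normalized log2 signal of the 30 members well above background, each centred on its own mean over the 4 arrays (x axis, log2 units), with genes grouped by role. Grey points are siControl and red points siFxr1, circles are experiment 1 and squares experiment 2. Red and grey points are separated for 12 members, most widely for Col14a1, and the experiments lie apart for genes such as Col12a1.

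The fibrillar collagens, which build the rope-like fibres of connective tissue, showed no common direction. Of 6 measured well above background, 2 were higher in both experiments, 3 were lower in both and 1 moved in opposite directions. The chains of type I collagen, the main fibril protein of tendon, bone and muscle connective tissue, were both lower. Col1a1 had 15.47 for siControl and 15.16 for siFxr1 in experiment 1, and 15.90 and 15.29 in experiment 2. Col1a2 had 16.16 and 15.49 in experiment 1 and 15.96 and 15.51 in experiment 2. For both chains each siFxr1 array was below each siControl array. The mean difference was -0.46 (SE 0.23, limma adjusted p = 0.975) for Col1a1 and -0.56 (SE 0.17, limma adjusted p = 0.975) for Col1a2. Col3a1, the chain of type III collagen that accompanies type I in elastic tissues, had 16.56 and 16.23 in experiment 1 and 16.94 and 17.12 in experiment 2. Its conditions overlapped, and its difference had opposite signs in the experiments.

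Type V collagen sits inside type I fibrils and sets their width, and its 3 chains differed from each other. Col5a1 had 13.45 for siControl and 14.05 for siFxr1 in experiment 1, and 14.23 and 15.18 in experiment 2. The siFxr1 array was the higher of each pair, but siFxr1 of experiment 1 was below siControl of experiment 2, so the conditions overlapped. The mean difference was 0.77 (SE 0.56, limma adjusted p = 0.975), with an SE of 0.22 and an adjusted p of 0.55 in the paired fit. Col5a3 differed by 0.39 in experiment 1 and 2.70 in experiment 2, where its siControl array, at 11.49, stood below the other 3 arrays, which lay between 13.33 and 14.19. Col5a2 differed by -0.28 and -0.05, and was lower in experiment 2 than in experiment 1 under both conditions.

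**Figure D2:**
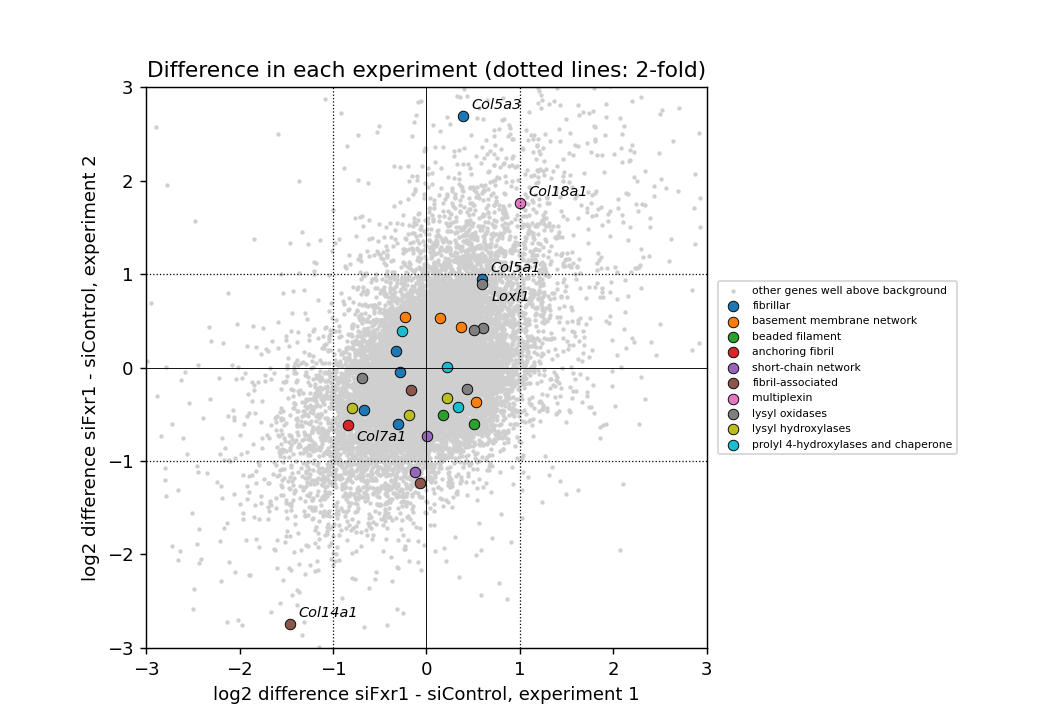
Log2 difference between siFxr1 and siControl in experiment 1 (x axis) and experiment 2 (y axis) for the members, coloured by role, and in grey for the genes well above background, of which 152 lie outside the axes. Dotted lines mark 2-fold. Col14a1 lies past 2-fold in both experiments on the lower side, Col18a1 lies at the 2-fold line of experiment 1, and most members lie within the dotted lines.

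The network-forming type IV collagens are the scaffold of basement membranes. Col4a1 and Col4a2, whose products join in the form found around muscle fibres, were both higher in siFxr1 in both experiments. Col4a1 had 12.18 and 12.55 in experiment 1 and 12.39 and 12.82 in experiment 2. Col4a2 had 12.45 and 12.60 in experiment 1 and 12.33 and 12.86 in experiment 2. In both genes the siFxr1 arrays lay above the siControl arrays, with mean differences of 0.40 (SE 0.20) and 0.34 (SE 0.18), and limma adjusted p = 0.975 for each. These genes are known to stand head to head. On GRCm38.p6 of RefSeq, the promoter windows of 250 bases before to 50 bases after the start of each, on chromosome 8, share 78 bases. Col4a5 and Col4a6, which are also neighbours in opposite orientation, on the X chromosome, each moved in opposite directions in the experiments, by -0.23 and 0.55 for Col4a5 and by 0.54 and -0.37 for Col4a6.

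Type VI collagen forms the beaded filaments that link the basement membrane of muscle fibres to the surrounding matrix. Col6a1 had 13.94 for siControl and 14.12 for siFxr1 in experiment 1, and 14.60 and 14.09 in experiment 2. Its differences of 0.18 and -0.51 had opposite signs, and those of Col6a2 were 0.51 and -0.60. For both genes siFxr1 was thus the higher condition of experiment 1 and the lower one of experiment 2.

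Col7a1, the chain of the anchoring fibrils that tie basement membranes to the tissue below, had 12.02 for siControl and 11.18 for siFxr1 in experiment 1, and 11.98 and 11.36 in experiment 2. Both siFxr1 arrays were below both siControl arrays, and the siControl arrays lay close together, with an SD of 0.03 (n = 2). The mean difference was -0.73 (SE 0.16, limma adjusted p = 0.967). The short-chain collagens, which form hexagonal lattices in cornea and vessel wall, differed mainly in experiment 2, by -1.12 for Col8a1 and -0.73 for Col8a2, against -0.12 and 0.01 in experiment 1. The second probe of Col8a2 was well above background on only 1 array.

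The fibril-associated collagens bind to the surface of type I fibrils and do not form fibrils themselves. By the probe taken for each gene, all 3 that were well above background were lower in siFxr1 in both experiments. They differed in size, and for Col16a1 other probes did not give the same direction. Col14a1, which binds decorin and is known from tendon and skin, had 8.39 for siControl and 6.93 for siFxr1 in experiment 1, and 9.11 and 6.37 in experiment 2. Both siFxr1 arrays were below both siControl arrays. The mean was 8.75 ± 0.51 (SD, n = 2) in siControl and 6.65 ± 0.40 (SD, n = 2) in siFxr1, a difference of -2.10 (SE 0.39, limma adjusted p = 0.95), or 4.30-fold lower. This probe (A_55_P2124736) lies at chr15:55352264-55352323 of mm9, downstream of the probe A_55_P2159522 with the 7 glycine codons. That probe gave the same direction, with 6.02 and 5.26 in experiment 1 and 7.65 and 4.77 in experiment 2. It was not well above background on 1 of the siFxr1 arrays, and its difference was -0.76 in experiment 1 and -2.88 in experiment 2.

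The size of the Col14a1 difference varied with the processing. It was -0.93 in experiment 1 and -1.93 in experiment 2 with normexp background correction, -0.96 and -1.86 in the authors' normalized table, and -1.47 and -2.60 with scaling to the 75th percentile. The first 2 of these fell short of 2-fold in experiment 1. Col12a1, which is known to be induced by mechanical load, had 11.36 and 11.19 in experiment 1 and 13.00 and 12.76 in experiment 2, so the experiments stood further apart than the conditions. Col16a1 differed by -0.07 and -1.23, and its second probe well above background by 0.44 and -0.89, so the probes differed in sign in experiment 1.

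**Figure D3:**
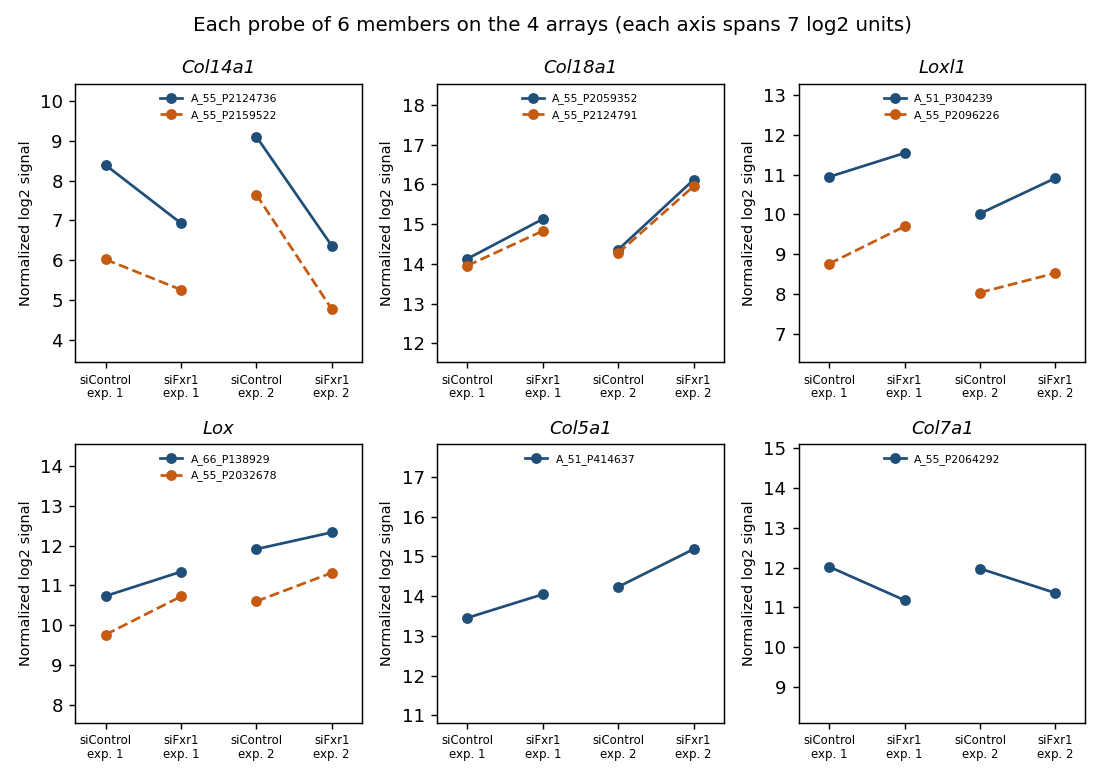
Normalized log2 signal (y axis, each panel spanning 7 log2 units) of every probe of 6 members on the 4 arrays (x axis), with lines joining the siControl and siFxr1 arrays of an experiment. Each probe of Col14a1 and of Col7a1 goes down and each probe of Col18a1, Loxl1, Lox and Col5a1 goes up from siControl to siFxr1 in both experiments.

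Col18a1 encodes a basement membrane collagen with heparan sulfate chains, whose C-terminal fragment is endostatin. It had 14.13 for siControl and 15.13 for siFxr1 in experiment 1, and 14.36 and 16.11 in experiment 2. Both siFxr1 arrays were above both siControl arrays, and the difference between the siFxr1 arrays, with a mean of 15.62 ± 0.70 (SD, n = 2), was larger than that between the siControl arrays, at 14.24 ± 0.16 (SD, n = 2). The difference was 1.00 in experiment 1, just short of 2-fold, and 1.76 in experiment 2, with a mean of 1.38 (SE 0.42, limma adjusted p = 0.975), or 2.60-fold higher. The probe (A_55_P2059352) lies at chr10:76514926-76514985 of mm9. A second probe (A_55_P2124791) had 13.96 and 14.83 in experiment 1 and 14.27 and 15.95 in experiment 2, differences of 0.87 and 1.68. With normexp correction the first probe differed by 1.15 and 1.75, with the 75th percentile by 1.13 and 1.79, and in the authors' table by 1.14 and 1.75, so that it was past 2-fold in both experiments under each of these. The second probe stayed short of 2-fold in experiment 1, at 0.74 with normexp, 0.97 with the 75th percentile and 0.72 in the authors' table.

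Lysyl oxidases oxidise lysines of collagen and elastin, the first step of crosslinking, and all 5 of the family were well above background. Of these, 3 were higher in both experiments. Loxl1, which is known for crosslinking elastin, had 10.94 for siControl and 11.54 for siFxr1 in experiment 1, and 10.02 and 10.91 in experiment 2. The higher array of each pair was siFxr1, but siFxr1 of experiment 2 was below siControl of experiment 1, so the conditions overlapped. The mean difference was 0.75 (SE 0.46, limma adjusted p = 0.975), with an SE of 0.21 and an adjusted p of 0.549 in the paired fit, and the other probe of Loxl1 differed by 0.94 and 0.49. Lox, the founding member of the family, differed by 0.61 and 0.42 with one probe and by 0.96 and 0.72 with the other. Loxl4 differed by 0.51 and 0.40, and its second probe by -0.0044 and 0.62. Loxl3 was lower, with differences of -0.69 and -0.11.

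The 4 probes named Loxl2 did not give 1 direction. The probe taken for the gene differed by 0.43 and -0.23. Another on chromosome 14 differed by -0.71 and -1.71, and another was not well above background on any array. The last lies on chromosome 2, where the array's annotation places a predicted similar gene, and differed by 0.36 and 0.17. No direction is given for Loxl2.

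Lysyl hydroxylases modify the lysines from which the stable crosslinks form. Plod2, the enzyme that acts on the chain ends, had 11.62 for siControl and 10.82 for siFxr1 in experiment 1, and 11.84 and 11.41 in experiment 2. Its siFxr1 arrays were below its siControl arrays, with a mean difference of -0.62 (SE 0.29, limma adjusted p = 0.975). Plod3, which also adds sugars to hydroxylated lysines, had 13.06 and 12.88 in experiment 1 and 13.66 and 13.15 in experiment 2, and its conditions overlapped. Plod1 moved in opposite directions in the experiments.

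The subunits of prolyl 4-hydroxylase, whose product keeps the triple helix stable at body temperature, showed no common direction. P4ha1 differed by -0.26 and 0.39, and P4ha2 by 0.34 and -0.42. Serpinh1, which encodes the collagen chaperone Hsp47, had 15.57 for siControl and 15.79 for siFxr1 in experiment 1, and 15.82 and 15.83 in experiment 2, with a mean difference of 0.12 (SE 0.18, limma adjusted p = 0.975).

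Differences between the experiments were of the same order as those between the conditions. In 17 of the 30 members (56.7%) the mean difference between the experiments was larger than the mean difference between the conditions, against 63.1% of all genes well above background. The summed log2 level of a marker list is the log2 of its probes' added signals, so it mostly follows the brightest probes. For 9 differentiated muscle cell markers it was 18.61 and 18.33 in siControl and siFxr1 of experiment 1, and 16.33 and 16.18 in experiment 2. All 9 were well above background on every array, and the conditions overlapped for each. Myh3 (-0.55 and -0.69), Tmem8c (-0.27 and -1.04), Myog and Acta1 were lower in siFxr1 in both experiments. Mylpf and Tnnt3 were higher in both, and Actn2, Ckm and Tnnc2 moved in opposite directions. The part of these markers in the differences between the experiments was not tested. Of 6 myoblast markers, Msc and Myf5 were not well above background on any array, while Myod1, Des, Cdh15 and Itga7 were on all 4, and the list's summed log2 level lay between 16.50 and 16.94. Myod1 differed by -0.17 and -0.73 and Des by 0.48 and 0.05, each without overlap of the conditions. Cdh15 differed by -0.17 and -0.01, and Itga7 by -0.10 and 0.32. Of 8 fibroblast or tendon cell markers, Dpt, Tcf21, Thy1 and Tnmd were not well above background on any array, while Pdgfra, Scx, Cd34 and Ly6a were on all 4. Pdgfra differed by -0.33 and -0.32, Scx by -0.31 and -0.69, Cd34 by -0.72 and 0.68, and Ly6a by 0.50 and -1.09. The summed log2 level of that list was between 14.87 and 15.71 on the arrays, lowest on siFxr1 of experiment 2. Of 4 macrophage markers, Emr1 and Ptprc were not well above background on any array, Cd68 was on 1 array of each condition and was lower in siFxr1, by -0.96 and -0.87, and Csf1r was on all 4 and was higher in siFxr1, by 0.91 and 0.78, with no overlap of the conditions. The summed log2 level of these 4 was 10.26 and 11.14 in experiment 1 and 9.81 and 10.51 in experiment 2. Of 3 endothelial markers, Cdh5 and Kdr were well above background on every array and Pecam1 on 3, Kdr differed by 0.50 and 0.10 without overlap of the conditions, and the list's summed log2 level lay between 11.62 and 12.11. The part of these markers in the members' differences was not tested.

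Fxr1 itself was lower in siFxr1. One probe had 13.20 and 9.36 in experiment 1 and 13.34 and 9.96 in experiment 2, and the other differed by -3.69 and -2.93. Neither probe was called, with limma adjusted p = 0.95 for each, and 0.535 for each in the paired fit. The fit thus called no change even for the gene that was knocked down. A missing call for a member does not show that it was unchanged. Between 45.4% and 52.9% of probes were well above background on an array.

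Of the genes that act with the members in collagen synthesis and in the matrix, 57 were listed and 51 are on the array, of which 38 were well above background on every array, as were 17812 of all genes. None of the 38 was called, 1, Ddr2, had an unadjusted p under 0.05, against 6.15% of those genes, and 4 in the paired fit, against 10.6%. In both experiments 0 were at least 2-fold higher, against 1.22%, and 1, Ddr2, was at least 2-fold lower, against 1.14%. Of the 38, 17 were higher in both experiments (33.3% of genes), 10 were lower in both (30.1% of genes) and 11 moved in opposite directions (36.4% of genes), with a median difference of 0.15 against 0.02. Another 4, Tnc, Postn, Thbs2 and Tnxb, held the mark on both arrays of only 1 condition and are left out of these counts. Ddr2, a receptor tyrosine kinase that binds fibrillar collagen, had 11.91 for siControl and 10.47 for siFxr1 in experiment 1, and 12.23 and 11.11 in experiment 2. Its siFxr1 arrays were below its siControl arrays, with a mean difference of -1.28 (SE 0.32, limma adjusted p = 0.967). Tnc encodes the matrix glycoprotein tenascin C. It was well above background on both siFxr1 arrays, at 7.01 and 8.07, and on neither siControl array, so its siControl level is uncertain. In the mean of both experiments its measured signal was 6.24-fold higher in siFxr1 (limma adjusted p = 0.95). To bound such a ratio, the siControl level was set to the lowest signal well above background on each array. Where the probe's own signal was higher, that signal was used. For Tnc its own signals, 5.13 and 4.67, were the higher, so the 6.24-fold is an estimate and not a lower bound. The ratio was 3.7 in experiment 1 and 10.5 in experiment 2.

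The promoters of the members at least 1.5-fold different in the same direction in both experiments are shown to give the sequence context of these starts. RefSeq windows of GRCm38.p6 were available here for 27 of the 38 names, in 30 windows, and Col14a1 and Loxl1 are not among them. Each run is the 250 bases before the start, 5′ to 3′ on the gene's strand, and capitals mark GGGCGG, the GC box, or its reverse complement CCGCCC.
Col18a1, upstream start, chr10:77166531-77166780, - strand: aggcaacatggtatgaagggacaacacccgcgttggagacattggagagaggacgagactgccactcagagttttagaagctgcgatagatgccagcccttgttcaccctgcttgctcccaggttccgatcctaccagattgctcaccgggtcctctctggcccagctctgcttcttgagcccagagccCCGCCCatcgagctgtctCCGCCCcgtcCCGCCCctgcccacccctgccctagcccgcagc
Col18a1, internal start, chr10:77113706-77113955, - strand: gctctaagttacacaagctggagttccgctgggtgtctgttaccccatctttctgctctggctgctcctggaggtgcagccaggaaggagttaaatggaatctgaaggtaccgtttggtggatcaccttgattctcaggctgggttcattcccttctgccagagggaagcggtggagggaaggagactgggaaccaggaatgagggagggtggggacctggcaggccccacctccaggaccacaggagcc
Col5a1, chr2:27886175-27886424, + strand: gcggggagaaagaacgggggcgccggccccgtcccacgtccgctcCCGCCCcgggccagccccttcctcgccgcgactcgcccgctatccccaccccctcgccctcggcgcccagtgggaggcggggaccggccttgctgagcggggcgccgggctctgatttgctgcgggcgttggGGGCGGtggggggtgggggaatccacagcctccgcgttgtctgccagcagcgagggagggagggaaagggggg
Col7a1, chr9:108953336-108953585, + strand: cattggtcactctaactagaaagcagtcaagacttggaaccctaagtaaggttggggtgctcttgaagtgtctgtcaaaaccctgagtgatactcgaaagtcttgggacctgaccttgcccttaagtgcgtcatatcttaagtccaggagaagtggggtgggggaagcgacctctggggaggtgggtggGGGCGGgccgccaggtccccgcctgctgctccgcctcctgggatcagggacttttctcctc
Of the windows shown, the upstream Col18a1 window holds 3 GC boxes, the internal one 0, Col5a1 holds 2 and Col7a1 holds 1. The motif was found in 20 of the 30 windows of the members (66.7%) and in 32.7% of all 32851 windows of the same length, where the median GC content was 61.8% and 52.4%. A match to these letters is a description of the window and no sign of a bound factor.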

How the data were processed

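Each of the 4 RNA samples, 2 per condition, was hybridised to its own one-colour Agilent array. The labels gave every sample a condition and an experiment, and none was left out. The authors deposited spot intensity values from Agilent Feature Extraction 10.7.3.1, with background corrected within the array, and a table of normalized intensities, which was used as an alternative. The number of arrays limits the precision.

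The log2 of the processed intensity was normalized by quantiles, in R 4.3.3 with limma 3.58.1, over 59305 spots that were not controls. Outlier spots were then set to missing, and each probe took the mean of its spots. The fit (lmFit and eBayes) had the condition as its only term, p-values were adjusted over all 55681 probes, and a call needed an adjusted p under 0.05 or B above 0. The SE values of this fit include the difference between the experiments. Its median residual SD over probes was 0.34, against 0.19 in the paired fit. A probe was well above background where the software marked a share of 0.5 or more of its spots so. A gene stands for its brightest probe, with values on all 4 arrays for counts over all genes. The size estimates of the fits were checked on simulated data with known differences, while p-values and calls were not checked.

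Members and lists were chosen with earlier results of these data known. Members were described in full where they differed by at least 1.5-fold in the same direction in both experiments or were among the 8 brightest, and the others within their role group. From the synthesis and matrix genes and the other collagens, those at least 2-fold different in both experiments were named.

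Replicate numbers pair the samples, since per the labels each number is an experiment with a slide of its own. Arrays with the same number deviated together from their condition's mean (r = 0.71). Alternatives were scaling to the 75th percentile, normexp with an offset of 50 on the mean signal and local background, the authors' table, the replicate block, a filter on dim probes, each array left out, and the mean over a gene's probes. Combinations of the block with another choice were added after seeing the data. Probe positions are those of the array on mm9, where exons and untranslated regions were not annotated here.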

Additional observations from a re-analysis of the deposited data

How the results depend on the processing

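Without a block, 0 probes were called under each alternative, and the replicate block alone gave 0 as well. Combinations added after seeing the data joined the replicate block with another choice. With dim probes filtered out of the fit, 354 probes were called, and 0 member probes. Of all 55681 probes, 406 were called with normexp, 1307 with the 75th percentile and 590 with the authors' table. Of the 56 member probes, 1, 2 and 2 were called in that order. Counts this small give no result about the members as a set. These were a Col18a1 probe with normexp, both Col14a1 probes with the 75th percentile, and a Col14a1 and a Col18a1 probe with the authors' table. The cause was not tested. Members at least 2-fold higher in both experiments numbered 1 in place of 0 with the 75th percentile, normexp and the authors' table, and those at least 2-fold lower 0 in place of 1 with normexp and the authors' table. Of the synthesis and matrix genes, Tnc included, 1 in place of 2 passed that limit with normexp and with the authors' table. Of the other collagens, 2 passed with the 75th percentile and 0 with normexp or the authors' table, in place of 1. Differences of some members changed sign: Col3a1 to 0.0263 under the 75th percentile, and with an array left out Col3a1 ranged from -0.51 to 0.37 (0.12 without siControl replicate 2, 0.37 without siFxr1 replicate 1), Col6a1 from -0.49 to 0.16 (the latter without siControl replicate 2) and Serpinh1 from -0.0078 (without siControl replicate 1) to 0.24. With each array left out in turn, Col14a1 stayed between -2.46 and -1.75 and Col18a1 between 0.88 (without siFxr1 replicate 2) and 1.87, while Col5a1 ranged from 0.20 to 1.34 (the lowest without siFxr1 replicate 2, the highest without siFxr1 replicate 1), Loxl1 from 0.28 (without siControl replicate 2) to 1.21 (without siControl replicate 1), and Col1a1 from -0.67 to -0.24 and Plod3 from -0.65 to -0.05, each without siControl replicate 1 and without siControl replicate 2. A count over both experiments cannot be made with an array left out, nor a limma call from the mean over probes.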

Other observations

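Collagen chains outside the list were mostly not well above background. Of 18 names, 16 are on the array and 2, Emid2 and Col9a2, were well above background on every array. Col10a1, Col17a1 and Col22a1 held that mark on both siFxr1 arrays but not on both siControl arrays, so the filter kept them through the condition in which they were higher. Col22a1, a fibril-associated collagen of the myotendinous junction, had 4.56 for siControl and 7.44 for siFxr1 in experiment 1, and 3.90 and 5.22 in experiment 2. Neither siControl array marked it as well above background, so only a bound can be given. In the mean of both experiments it was at least 3.30-fold higher in siFxr1 (limma adjusted p = 0.975). The levels in experiment 2 differed by less than this, so the bound does not hold for experiment 2 alone.

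Some probes of members are named by an Ensembl transcript on the array and were therefore not counted. One described as the type VI alpha 3 chain, the Col6a3 product, had 12.65 for siControl and 13.55 for siFxr1 in experiment 1, and 15.19 and 16.12 in experiment 2. Its differences of 0.89 and 0.93 had the same sign, while the level in experiment 2 was higher under both conditions. One described as type XVI alpha 1 differed by 0.91 and 0.97, in the opposite direction to the probe taken for Col16a1. It was well above background on both siFxr1 arrays and on 1 siControl array.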
